A study of Rattus norvegicus with 8 samples.

Results

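Genes of the interferon response and of antigen presentation were followed in primary cultures of rat semicircular canal duct (SCCD) epithelium, the epithelium that absorbs Na+ from the endolymph of the vestibular part of the inner ear. The members were 38 listed genes of both pathways (receptors and their kinases, STAT and IRF transcription factors, brakes on the signal, antiviral effectors, interferon-induced GTPases, and presentation genes) together with each gene whose symbol begins with RT1, the major histocompatibility complex (MHC) of the rat. Looked up by symbol or synonym, 33 of the 38 listed genes and 18 RT1 genes had a probe set that names 1 gene, which made 51 members among 10412 genes named by the array. Jak1, Isg15, Ifit2, Igtp and Irgm had no such probe set. Where a gene had several probe sets, the strongest was used.

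Total RNA came from SCCD cultures of neonatal Wistar rats (3 to 5 days old) grown on permeable supports. Control cultures were untreated (n = 4) and the others received 100 nM dexamethasone, a synthetic glucocorticoid (n = 4), with 1 Affymetrix Rat RAE 230A array per sample, and the comparison asked which transcripts differed with the steroid. The exposure time of the array samples, the number of animals behind each culture and any pairing of control with treated cultures are not given in the sources used here, so the p-values reflect how much these samples varied, which may be technical variation. No interferon was added to either group.

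Interferons act through cell surface receptors and Janus kinases on STAT and IRF factors, which bind interferon-stimulated response elements (ISRE) and gamma-activated sites (GAS) in promoters and switch on antiviral genes. MHC class I molecules, made of a heavy chain and beta-2 microglobulin, show peptides cut by the proteasome on nearly all nucleated cells, whereas class II molecules show peptides from the endosome mainly on professional antigen-presenting cells. Glucocorticoids are known to damp inflammatory signals in many tissues.

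Signals are in arbitrary units after each array was scaled to a trimmed mean of 500. Replicates 1 and 2 of both groups had been deposited at that target and replicates 3 and 4 at 202 to 336, so these are treated below as 2 sets of arrays. A probe set was tested with limma where its mean signal over the 8 arrays was at least 100. As the table holds no detection calls, a level of silent genes was set on each array from 50 genes that other tissues use, such as pancreatic and retinal genes, as their 95th percentile, and it lay between 109 and 186. Epithelial markers were abundant (8 of 9 above that level on all 8 arrays, including Epcam, Cdh1, Krt8, Krt18 and Krt19). In contrast, 12 of 17 leukocyte markers, including Ptprc, Cd68 and Itgam, were above it on no array. Of 8 fibroblast markers, 4 were above it on all 8 arrays and 3 on none. Among the 4, Col3a1, Col1a2 and Col1a1 had mean signals of 2259, 1339 and 1180.

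Among the members, 2 of the 39 tested were higher with dexamethasone at an adjusted p under 0.05 (limma, Benjamini-Hochberg over all probe sets tested), RT1-DMa of the class II pathway and the transcription factor Irf8, and none was lower. That is 5.13% of the members tested, against 2.69% of all probe sets tested in either direction and 1.88% higher. At an unadjusted p under 0.05 there were 7 members, 4 higher and 3 lower (17.9% of the members, against 16.1% of all probe sets). The median log2 fold change was 0.06 over the members tested, with 23 of 39 above 0, and -0.02 over all probe sets. With 2 members called, the share differs from the background by about 1 gene.

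**Figure D1:**
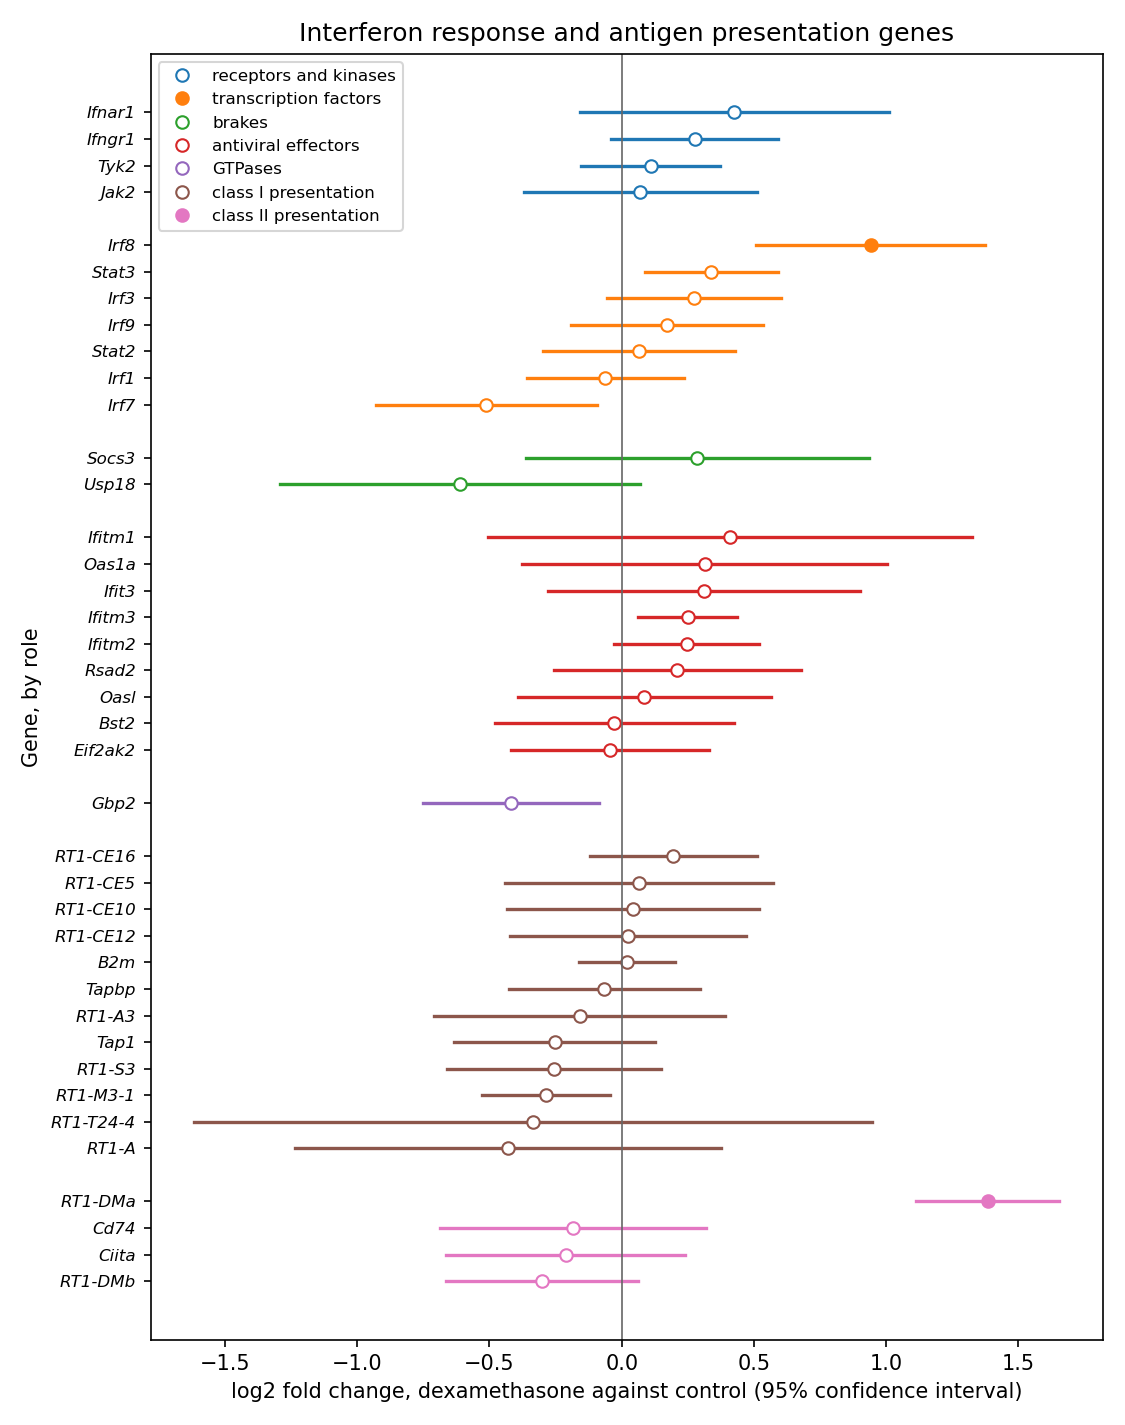
The plot shows the log2 fold change (dexamethasone against control, 4 arrays each) with its 95% confidence interval for the 39 members tested, grouped by role; filled points passed the test. Only RT1-DMa at 1.38 and Irf8 at 0.94 are filled, and most of the other intervals include 0.

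RT1-DMa had the largest log2 fold change of the 39 members tested. It encodes the alpha chain of the rat DM molecule, an endosomal chaperone that removes the invariant chain fragment from class II molecules and edits the peptides they hold. The signals of its probe set were 468, 609, 547 and 502 on the control arrays and 1519, 1396, 1186 and 1442 on the dexamethasone arrays. Every treated array was above every control array, with 609 as the highest control and 1186 as the lowest treated signal. The means were 532 ± 60.8 and 1386 ± 143 (SD, n = 4 each), a 2.61-fold difference, with a log2 fold change of 1.38 (SE 0.12) and an adjusted p of 7.0e-05 by limma. An exact permutation test of the 4 against 4 signals gave p = 0.0286 (two-sided), the smallest this design allows. The difference was of like size in both sets of arrays, 1.45 on replicates 1 and 2 and 1.32 on replicates 3 and 4. It missed the threshold with the signals as deposited (1.55, adjusted p = 0.0503) and within replicates 3 and 4 alone (adjusted p = 0.0507).

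No other gene of the class II pathway passed the test. RT1-DMb, the beta chain that pairs with RT1-DMa, had 292, 281, 335 and 225 in control and 275, 205, 236 and 202 with dexamethasone, and the groups overlapped (log2 fold change -0.30, SE 0.17, adjusted p = 0.418). Whether the change of the alpha chain differed from that of the beta chain was not tested. Ciita, the master regulator of class II transcription, had signals of 108 to 194 and Cd74, the invariant chain, of 112 to 204, both close to the level of silent genes (above it on 5 and 4 of the 8 arrays), with adjusted p of 0.677 and 0.757. The classical class II chains RT1-Ba, RT1-Bb, RT1-Da and RT1-Db1, which form the peptide-binding molecules themselves, were above that level on no array and failed the filter on mean signal. Of the 8 class II members, 4 were tested and 1 was higher, beside 1.88% of all probe sets.

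The promoter of RT1-DMa is shown because it carries the largest change of the group. In the RefSeq annotation of GRCr8 the gene lies on chromosome 20 on the minus strand, and the 250 bases before its start span chr20:4712336-4712585. Capitals mark an inverted CCAAT box, the Y box of class II promoters.
RT1-DMa: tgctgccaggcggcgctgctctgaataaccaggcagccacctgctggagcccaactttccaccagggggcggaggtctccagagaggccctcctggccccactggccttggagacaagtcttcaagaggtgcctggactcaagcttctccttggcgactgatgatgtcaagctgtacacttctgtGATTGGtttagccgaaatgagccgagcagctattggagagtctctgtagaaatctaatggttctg

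Searched on both strands, this stretch held neither the ISRE core GAAANNGAA nor the GAS TTCNNNGAA nor a glucocorticoid response element written as ACANNNTGT, and it held GATTGG from base -65 to base -60 before the start. That box was added to the search after the promoters had been read. The window and strand used for it below were not set beforehand either. Between bases -90 and -31 on the gene's own strand, the same letters stood in all 5 RT1 class II members with a promoter sequence. Of the 33469 promoters of the annotation, 2.46% held them there. The box was not particular to class II. B2m (from base -65), Stat3 (-58) and RT1-T24-3 (-89) also held it in that window and on that strand. Over the full promoters searched, on either strand, 18 of 43 members held it (41.9%, against 14.8% of all promoters). The 60 bases from -90 to -31 of the 5 class II members are given so that the shared box can be compared. The box is in capitals (GRCr8, each window 5′ to 3′ on the strand of its gene).

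RT1-DMa: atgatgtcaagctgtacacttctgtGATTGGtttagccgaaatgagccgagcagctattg
RT1-Da: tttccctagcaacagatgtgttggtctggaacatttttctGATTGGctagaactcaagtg
RT1-Db1: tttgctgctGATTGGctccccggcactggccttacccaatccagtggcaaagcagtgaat
RT1-Ba: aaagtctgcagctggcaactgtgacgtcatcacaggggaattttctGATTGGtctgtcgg
RT1-Bb: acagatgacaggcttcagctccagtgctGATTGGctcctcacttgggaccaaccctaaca

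The 5 windows lie at chr20:4712366-4712425 (RT1-DMa, minus strand), chr20:4515325-4515384 (RT1-Da, plus), chr20:4560193-4560252 (RT1-Db1, minus), chr20:4576967-4577026 (RT1-Ba, plus) and chr20:4604149-4604208 (RT1-Bb, minus). Of these genes, RT1-DMa alone had a signal above the level of silent genes. A match of letters is a description and does not show that a factor binds there.

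Irf8 was the other member that passed the test. It encodes an interferon regulatory factor best known for its part in the development of myeloid cells and B cells, and it is itself induced by interferon gamma. Its signals were 189, 168, 288 and 271 in control and 383, 525, 459 and 365 with dexamethasone, and the groups did not overlap. The means were 229 ± 59.4 and 433 ± 74.0 (SD, n = 4 each), 1.89-fold, with a log2 fold change of 0.94 (SE 0.20) and an adjusted p of 0.0271 (exact permutation p = 0.0286). All 8 signals were above the level of silent genes of their array, with the smallest margins on control replicates 1 and 2 (189 against 159 and 168 against 160). The difference was 1.33 on replicates 1 and 2 and 0.55 on replicates 3 and 4, where it did not pass (adjusted p = 0.390), and the call was also lost with no filter on low signals (0.127), with the signals as deposited (0.898) and when control replicate 1 (0.0751), control replicate 2 (0.0788), dexamethasone replicate 2 (0.0858) or dexamethasone replicate 3 (0.0662) was left out.

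Because Irf8 is a gene of leukocytes, the leukocyte markers are given beside it. Their summed signal was 1933, 1445, 1435 and 1214 in control and 5477, 2491, 1523 and 1726 with dexamethasone, and the groups overlapped. The highest sum came from Lyz2, a macrophage lysozyme, which reached 3415 on dexamethasone replicate 1 and was 48.8 to 969 on the other treated arrays. Of the 5 leukocyte markers tested, 0 passed by limma over all 8 arrays, and 1 was at an unadjusted p under 0.05 (against 16.1% of all probe sets). The one of these without overlap was Cd14, a receptor for bacterial lipopolysaccharide, at 278 ± 75.6 in control and 544 ± 185 with dexamethasone (adjusted p = 0.0809). Of the 5, 3 had a log2 fold change above 0. Aif1 (228 in control and 211 with dexamethasone) and Csf1r (163 and 146) were lower, with overlapping groups. Of the 12 others, C1qa, a complement gene of macrophages, was also without overlap, with signals of 14.4 to 16.3 on control arrays and of 20.4 to 102 on treated ones, below the level of silent genes on all 8 arrays. In whole cultures, fewer cells of a type and less RNA per cell cannot be told apart. The part of leukocytes in the Irf8 signal was not tested.

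Irf8 lies on chromosome 19 on the plus strand, and its 250 bases before the start, chr19:65699034-65699283 in GRCr8, are shown for the elements named above; capitals mark, in order, 2 GAS (from bases -180 and -161) and an inverted CCAAT box (from base -130).
Irf8: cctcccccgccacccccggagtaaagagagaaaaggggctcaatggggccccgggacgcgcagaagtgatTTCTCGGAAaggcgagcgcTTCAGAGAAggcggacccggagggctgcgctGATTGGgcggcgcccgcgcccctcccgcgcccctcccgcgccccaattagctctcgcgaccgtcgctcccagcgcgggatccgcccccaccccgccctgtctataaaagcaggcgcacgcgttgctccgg

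No ISRE core and no glucocorticoid response element of the searched form was found there.

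Of the other transcription factors, Stat3 came closest to the threshold. STAT3 transmits signals of the interleukin-6 family and is also activated by interferons. Its strongest probe set read 2178, 2322, 1677 and 2184 in control and 2386, 2821, 2642 and 2663 with dexamethasone. The treated arrays were all higher, by a margin smaller than the spread within either group (log2 fold change 0.34, SE 0.11, adjusted p = 0.164). A second Stat3 probe set also did not overlap, with means of 497 ± 94.1 and 779 ± 171 (0.64, SE 0.19, adjusted p = 0.0986), and passed when the set of arrays was added as a block (0.0234). Il6st, the shared receptor chain gp130 through which these cytokines reach STAT3, was at 1740 ± 306 and 2321 ± 154 (0.43, SE 0.12, adjusted p = 0.0985). Its arrays read 1538, 1715, 1527 and 2182 in control and 2137, 2294, 2510 and 2344 with dexamethasone, and the groups overlapped.

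Irf7, the amplifier of the type I interferon response, stood the other way, at 359 ± 76.6 in control and 252 ± 56.2 with dexamethasone (-0.51, SE 0.19), with overlapping groups and an adjusted p of 0.210. Stat2 and Irf9, factors that act at the ISRE in the type I interferon response, were at 366 and 387 and at 243 and 277, and neither passed (adjusted p of 0.895 and 0.678). Irf1 was at 515 and 491 (0.871) and Irf3, a factor kept ready in the cytosol, at 552 and 656 (0.416). Irf2 lay under the floor of 16 on all 8 arrays, so no fold is given. Among the 8 transcription factors, 7 were tested and 1 was higher, beside 1.88% of all probe sets.

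**Figure D2:**
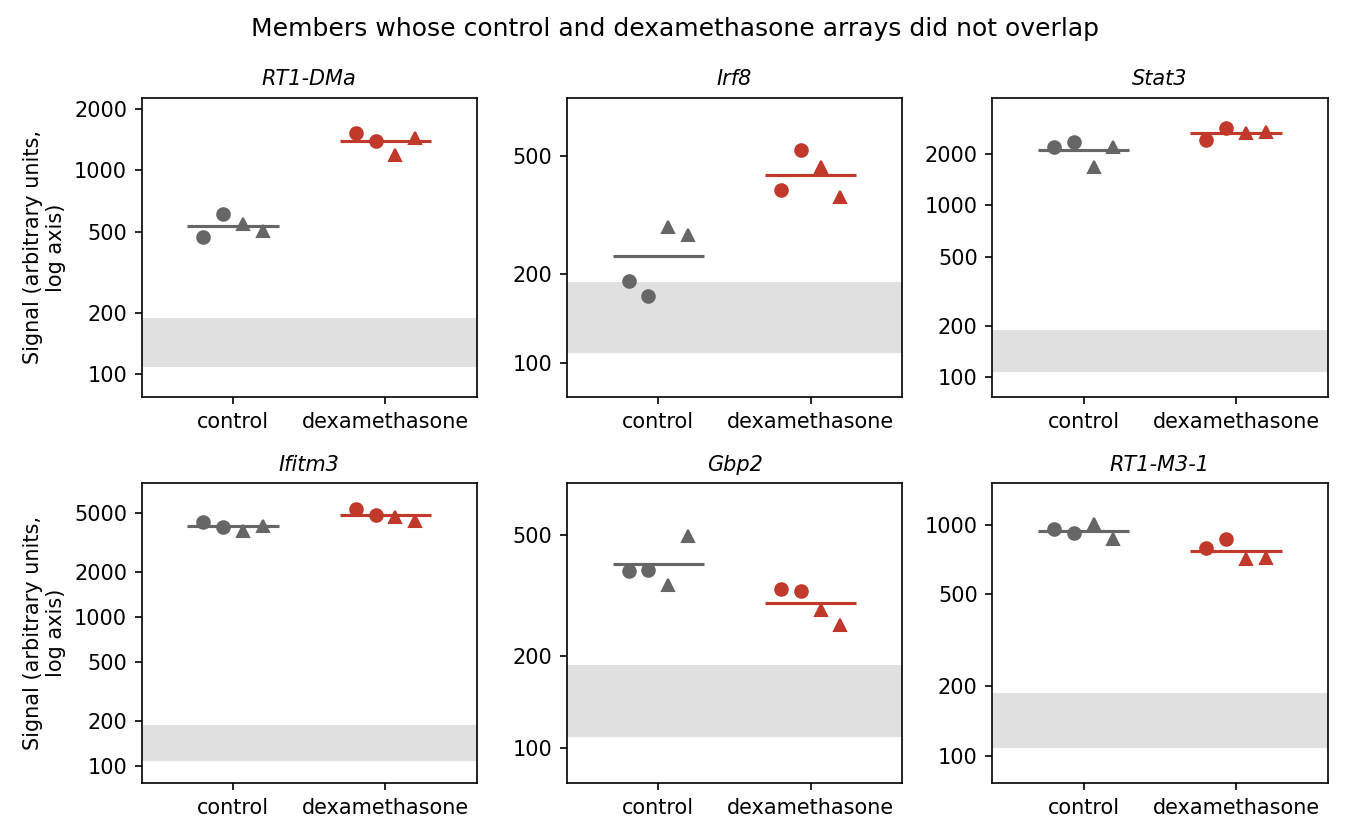
The plot shows the scaled signal (arbitrary units, log axis) on each array for the 6 members tested whose control and dexamethasone arrays did not overlap; circles are replicates 1 and 2, triangles replicates 3 and 4, lines group means, and the grey band the range of the level of silent genes over the 8 arrays. RT1-DMa separates from 468 to 609 against 1186 to 1519, whereas for Stat3, Ifitm3, Gbp2 and RT1-M3-1 the gap between the groups is small beside their spread.

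In all, 4 members were without overlap upwards (RT1-DMa, Irf8, Stat3 and Ifitm3) and 2 downwards (Gbp2 and RT1-M3-1), or 15.4% of the members tested, against 11.0% of all probe sets in either direction and 5.46% downwards. Of the 6, only RT1-DMa and Irf8 passed the test.

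Receptors and kinases are the entry to the pathway. Ifngr1, the ligand-binding chain of the interferon gamma receptor, was the strongest of them, at 1693, 1441, 1793 and 2320 in control and 2093, 1848, 2395 and 2356 with dexamethasone. Control replicate 4 lay within the range of the treated arrays, and the difference did not pass (0.28, SE 0.14, adjusted p = 0.387). Tyk2, a kinase of the type I receptor, was at 371 ± 25.3 and 400 ± 30.1 (adjusted p = 0.716) and Jak2, a kinase of the gamma receptor, at 146 and 156 (0.907). Ifnar1, a chain of the type I receptor, was above the level of silent genes on no array. All 4 fold changes were above 0 (0.07 to 0.43) and 0 of the 4 passed by limma. None was at an unadjusted p under 0.05 either, against 16.1% of all probe sets.

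The partner chains Ifnar2 (291 and 316) and Ifngr2 (730 and 730) were above the level of silent genes on all 8 arrays and did not pass either. The ligands Ifnb1 and Ifng were above it on no array.

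The brakes gave no call. Usp18, which restrains the type I receptor, had 224, 191, 615 and 212 in control and 166, 192, 191 and 168 with dexamethasone. One control array thus set the control mean of 311, and without control replicate 3 the log2 fold change went from -0.61 (adjusted p = 0.370) to -0.22. Socs3, which blocks Janus kinases, was at 119 ± 52.0 and 138 ± 32.6 (adjusted p = 0.697), and Socs1 stayed under 30 on all 8 arrays, below the level of silent genes.

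Antiviral effectors are the end of the pathway. None of the 9 tested passed by limma, and 1 was at an unadjusted p under 0.05 (against 16.1% of all probe sets). Of the 9 fold changes, 7 were above 0, with a median log2 value of 0.25 against -0.02 over all probe sets. Ifitm3, a membrane protein that blocks the entry of enveloped viruses, was the strongest, at 4323, 4024, 3764 and 4053 in control and 5274, 4847, 4692 and 4413 with dexamethasone. The groups were separated by 4323 against 4413, a narrow gap (0.25, SE 0.09, adjusted p = 0.169). Its relative Ifitm2 was at 1854 ± 115 and 2219 ± 384 (0.25, adjusted p = 0.371) with the excess on replicates 1 and 2 (0.42) rather than on 3 and 4 (0.07), a contrast that was not tested. Eif2ak2, the kinase PKR that stops translation on double-stranded RNA, was at 259 and 248, and Bst2, tetherin, at 338 and 326 (adjusted p of 0.935 and 0.972). Several classic induced genes were low. Mx1 (31.9 to 70.3) and Mx2 (26.7 to 79.4) were above the level of silent genes on no array. Oas1a, Ifit3 and Rsad2 were above it on 2, 3 and 3 of the 8 arrays, whereas Oasl (127 to 230) was above it on 7. Of the 11 effectors found, 4 were above it on all 8 arrays.

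The 60 bases before the start of Ifitm3, Ifitm2 and Gbp2 are shown, since all hold an ISRE core next to the start while the groups of Ifitm3 and of Gbp2, which did not pass the test, lay apart in opposite directions. Capitals mark the ISRE core on either strand and, in Ifitm3, also a GAS.
Ifitm3: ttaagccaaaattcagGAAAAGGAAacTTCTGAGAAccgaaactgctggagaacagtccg
Ifitm2: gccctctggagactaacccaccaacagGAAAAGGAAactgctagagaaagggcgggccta
Gbp2: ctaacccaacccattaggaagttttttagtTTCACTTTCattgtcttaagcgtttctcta

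These lie at chr1:205541759-205541818 (Ifitm3, minus strand), chr1:205482349-205482408 (Ifitm2, minus strand) and chr2:234005667-234005726 (Gbp2, plus strand) in GRCr8. The ISRE core GAAANNGAA starts at base -44 in Ifitm3 and -33 in Ifitm2, and stands on the opposite strand from base -30 in Gbp2. Over the 43 members with a promoter sequence, counted from 250 bases before to 50 after the start, 16 held it (37.2%, against 9.71% of all promoters) and 8 held the GAS (18.6%, against 8.87%). The glucocorticoid response element ACANNNTGT was in 3 of them, RT1-T24-3, RT1-CE10 and RT1-Db1 (6.98%, against 6.86%), and none of these passed the test or, for RT1-T24-3 and RT1-Db1, the filter.

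Gbp2, a guanylate-binding protein that attacks intracellular pathogens, was the one member found of the 3 listed as GTPases (Gbp2, Igtp and Irgm). It read 382, 385, 343 and 496 in control and 332, 328, 283 and 254 with dexamethasone. All treated arrays were below all control arrays, but the lowest control and the highest treated signal were 343 and 332 (-0.42, SE 0.15, adjusted p = 0.193).

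Class I presentation genes gave no call. Of 16 members, 9 were above the level of silent genes on all 8 arrays and 4 on none. Of the 12 tested, 0 passed by limma, and 1 was at an unadjusted p under 0.05 (against 16.1% of all probe sets). Their median log2 fold change was -0.11, against -0.02 over all probe sets. B2m, the light chain common to all class I molecules, read 5002, 5297, 5563 and 5672 in control and 5028, 5260, 5962 and 5610 with dexamethasone. Its log2 fold change was 0.02 with a 95% confidence interval from -0.16 to 0.20 (adjusted p = 0.937), and its sign turned under 5 of the other settings. Tap1, a subunit of the transporter that carries peptides into the endoplasmic reticulum, was at 187 ± 29.6 and 156 ± 15.6 (-0.25, adjusted p = 0.523). Tapbp, the bridge tapasin, was at 346 and 334 (adjusted p = 0.891), and Tap2 was under the level of silent genes on all arrays.

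Many RT1 class I heavy chains are close copies of each other, and 5 of the 12 found are read by probe sets whose names mark probes shared with other transcripts, so these signals cannot be given to 1 gene with certainty. RT1-M3-1, a nonclassical class I gene whose product shows formylated bacterial and mitochondrial peptides, was without overlap, at 956, 926, 1012 and 870 in control and 794, 869, 715 and 716 with dexamethasone. Control replicate 4 and dexamethasone replicate 2 nearly met at 870 and 869 (-0.29, SE 0.11, adjusted p = 0.230). RT1-CE12, RT1-CE10 and RT1-CE16 had group means of 5415 and 5258, 1274 and 1295, and 1005 and 1143, with adjusted p of 0.974, 0.953 and 0.561. RT1-S3 was at 925 and 785 (0.551) and RT1-CE5 at 365 and 373 (0.927). On replicates 1 and 2 alone RT1-CE12 passed the test (0.42, adjusted p = 0.0251), whereas on replicates 3 and 4 its value was -0.38.

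Part of the spread of the members followed the set of arrays rather than the treatment. Replicates 3 and 4 were below replicates 1 and 2, without overlap, for 7 of the 39 members tested (17.9%, against 6.85% of all probe sets): Jak2, Irf9, Ifitm1, Bst2, RT1-A, RT1-A3 and RT1-T24-4. They were above for B2m alone (2.56%, against 4.7%). The mean log2 signal was lower by 1 or more on replicates 3 and 4 in 2 members (5.13%, against 0.617% of all probe sets). The probe set of RT1-T24-4, a nonclassical class I gene, has a name that marks probes shared with other transcripts. Its signals were 294, 402, 113 and 97.2 in control and 385, 250, 78.4 and 68.0 with dexamethasone, a difference of -1.90 between the sets of arrays. Ifitm1, a relative of Ifitm3, had 361, 223, 104 and 145 in control and 428, 370, 175 and 138 with dexamethasone (-1.28). Within each set, treated and control arrays of these genes differed by less than the sets did.

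**Figure D3:**
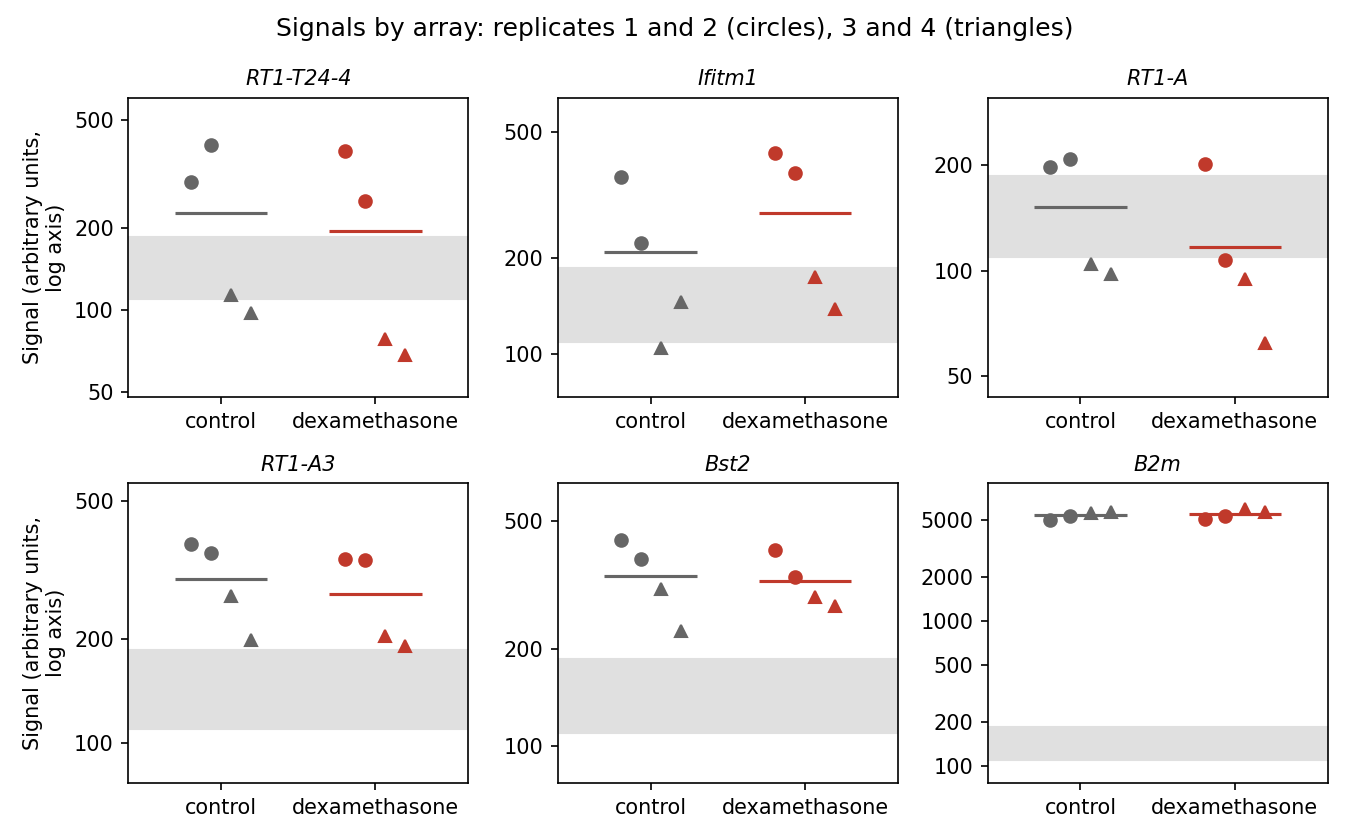
The plot shows the scaled signal (arbitrary units, log axis) of 6 of the members whose replicates 1 and 2 (circles) did not overlap replicates 3 and 4 (triangles), with group means as lines and the range of the level of silent genes as a grey band. In RT1-T24-4 and Ifitm1 circles lie above triangles in both groups, with signals of 223 to 428 against 68.0 to 175, and in B2m the triangles are slightly higher.

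With the set of arrays as a block RT1-DMa and Irf8 passed (adjusted p of 7.5e-05 and 0.0156) and no other member did, while the calls over all probe sets went from 279 to 578 (5.57%). The 3' to 5' ratio of beta-actin, which rises with degraded or short transcripts, was 8.10 to 13.7 in control and 6.17 to 8.07 with dexamethasone, a gap of 8.07 against 8.10, and that of GAPDH overlapped (2.10 to 3.79 and 2.14 to 3.18). With the beta-actin value (log2) added to the fit, RT1-DMa (1.35, adjusted p = 0.00525) and Irf8 (1.31, adjusted p = 0.0398) passed, and Stat3 went from 0.34 to 0.10.

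Other genes of the 2 pathways were examined from a list of 106, of which 67 had a probe set and 54 were tested. None was higher (against 1.88% of all probe sets) and 2 were lower (3.70%, against 0.81%); in either direction the 3.70% stands beside 2.69% of all probe sets. At an unadjusted p under 0.05 (limma) there were 13 of the 54, 4 higher and 9 lower, against 16.1% of all probe sets in either direction. Without overlap between the groups, 3 were higher and 5 lower (14.8%, against 11.0% of all probe sets). The 3 were Socs6 (0.43), Parp9 (0.31) and Fcgrt (0.21), with adjusted p of 0.167, 0.224 and 0.252 by limma. The 5 were Procr, Ifi27l2b, Psmb9 and Psme2, described below, and Mov10 (-0.40, adjusted p = 0.340 by limma). Procr, the protein C receptor, a molecule with the fold of MHC class I that binds a coagulation protease and no peptide, was at 439, 627, 524 and 736 in control and 199, 213, 300 and 256 with dexamethasone. Every treated array was below every control array (-1.26, SE 0.19, adjusted p = 0.00321). The call was lost with no filter (0.0519), with the signals as deposited (0.879), on replicates 3 and 4 alone (0.147) and with the beta-actin ratio as a covariate (0.0775). Procr is also a gene of endothelium, and of the endothelial markers tested Kdr was higher (704 ± 151 and 2763 ± 250) and Flt1 lower, while 5 of 8 found, including Pecam1 and Vwf, were above the level of silent genes on no array.

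Ifi27l2b, of the interferon-inducible Ifi27 family, was the other gene that fell, from 455 ± 85.1 to 275 ± 46.1 (-0.72, SE 0.17, adjusted p = 0.0436). Its arrays read 379, 421, 576 and 443 in control and 308, 320, 245 and 226 with dexamethasone. This call was near the threshold and held, of the 8 fits that left out 1 array, only without control replicate 1 (adjusted p = 0.0467; 0.0529 to 0.121 in the others). It was also lost with no filter (0.132), with the signals as deposited (1.00), with no mean-variance trend (0.0640), with the replicate number as a block (0.0501), on replicates 1 and 2 alone (-0.35, 0.286), on replicates 3 and 4 alone (0.132) and with the beta-actin value added (-0.44, 0.546). Its relative Ifi27, the strongest effector of the list, was at 5126, 5343, 6809 and 4665 in control and 5646, 4968, 4482 and 4907 with dexamethasone, with overlapping groups (-0.12, adjusted p = 0.669).

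Among the listed genes of peptide supply for class I, the subunits of the immunoproteasome and of its activator all had mean signals that were lower with dexamethasone, and none passed the test. The immunoproteasome subunit Psmb9 read 558, 630, 862 and 607 in control and 493, 414, 455 and 355 with dexamethasone, and Psme2, a subunit of the PA28 proteasome activator, read 1428, 1807, 2015 and 1853 and then 1299, 1313, 1294 and 1297. Both were without overlap and just missed the threshold (-0.62, SE 0.16, adjusted p = 0.0646, and -0.44, SE 0.11, adjusted p = 0.0707). Both passed with the set of arrays as a block (0.0446 and 0.0339). Psmb9 also passed with the replicate number as a block, and Psme2 without control replicate 1 (0.0245). These genes were singled out after their values had been seen. Of their partners, Psmb10 was at 607 and 441 (-0.46, adjusted p = 0.215), Psmb8 at 507 and 396 (-0.34, adjusted p = 0.543) and Psme1 at 2066 and 1848 (-0.16, adjusted p = 0.561), all with overlapping groups. With the beta-actin ratio as a covariate the values of Psmb9 and Psme2 were -0.26 and -0.30 (adjusted p of 0.689 and 0.589).

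**Figure D4:**
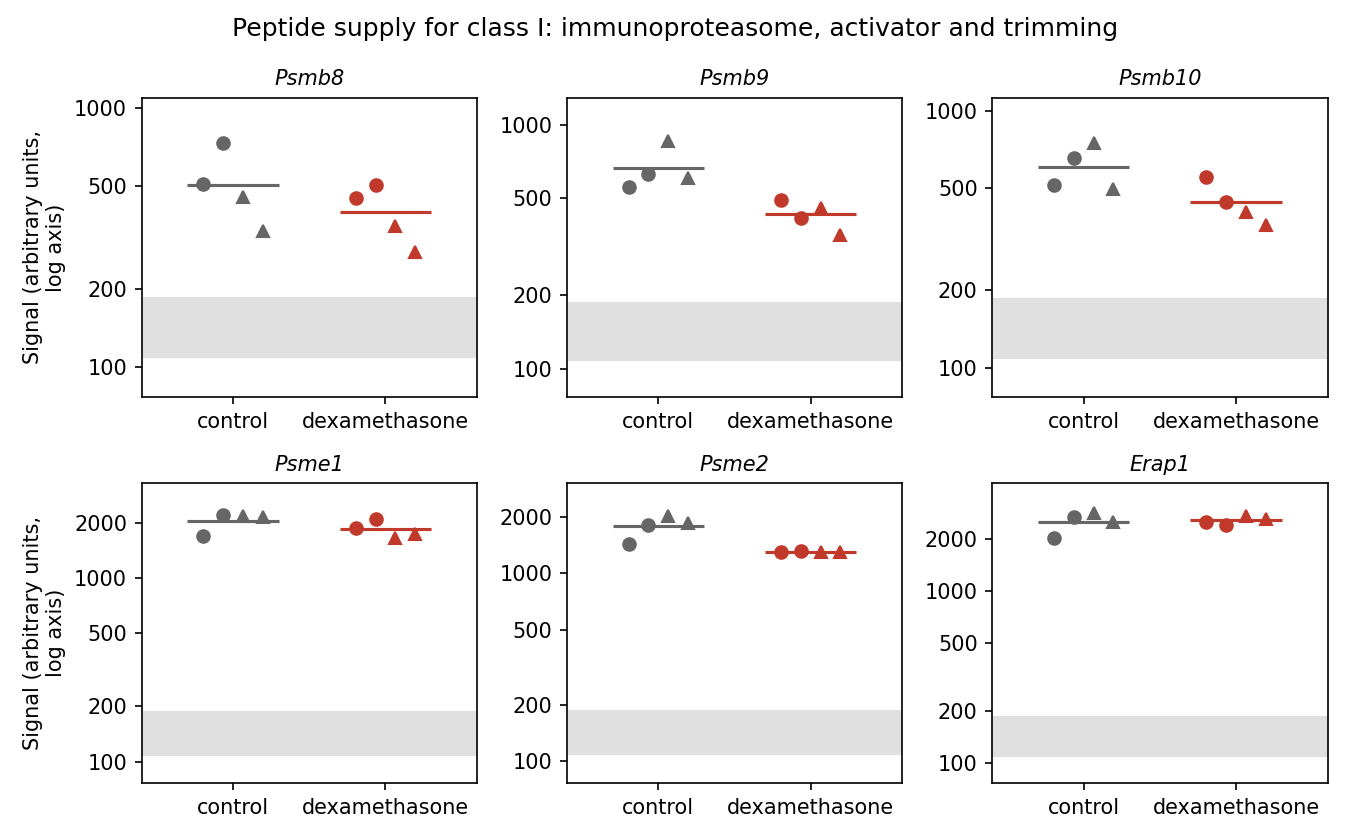
The plot shows the scaled signal (arbitrary units, log axis) on each array for 3 immunoproteasome subunits, the 2 PA28 subunits and the trimming peptidase Erap1; circles are replicates 1 and 2, triangles replicates 3 and 4, lines group means, and the grey band the range of the level of silent genes. Psmb9 and Psme2 are without overlap, and the other genes overlap.

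No gene of the later steps passed the test. Erap1, which trims peptides in the endoplasmic reticulum, was at 2508 and 2561, and the folding helpers Calr, Canx and Pdia3 had log2 fold changes of 0.03, 0.00 and 0.03. Ctsl, an endosomal protease of the class II route and the strongest processing gene, read 5100, 5000, 4679 and 5000 in control and 5647, 5384, 4969 and 5627 with dexamethasone (0.13, adjusted p = 0.468). Ifi30, a thiol reductase of the same compartment, was at 2791 and 2721 (-0.04).

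The chemokine Ccl5, which draws T cells, was the one chemokine of the list that was tested. It varied widely, at 299, 508, 553 and 891 in control and 111, 124, 463 and 308 with dexamethasone (-1.31, SE 0.44, adjusted p = 0.162). It passed with the set of arrays (0.0123) or the replicate number as a block, on replicates 1 and 2 alone (0.00614) and without dexamethasone replicate 3. It did not pass on replicates 3 and 4 alone (0.361) or with the beta-actin ratio as a covariate (0.664). The strongest gene of each remaining class did not pass. Rfx5, a factor that binds class II promoters, read 1090, 1014, 818 and 1130 in control and 981, 954, 1093 and 1070 with dexamethasone (0.03). Ptpn11, the phosphatase SHP2, read 1556, 1692, 2001 and 1818 and then 1964, 1859, 2100 and 2239 (0.21, adjusted p = 0.371). Mavs, the adaptor of cytosolic RNA sensors, read 319, 325, 439 and 286 and then 401, 411, 336 and 347 (0.14, adjusted p = 0.718).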

How the data were processed

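Total RNA of 8 SCCD culture samples (4 control, 4 dexamethasone, 1 array each) was labelled with 2 rounds of in vitro transcription and hybridised. The deposited values are signal intensities on a linear scale, made by the authors with the Affymetrix statistical algorithms and labelled as scaled to a target of 500; the software version is not given in the sources used here. The table holds 15923 probe sets (57 controls) and neither detection calls nor probe-level values. Its annotation gives 1 symbol to 12789 probe sets, several to 312 and none to 2771; a probe set with several genes named no member.

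Each array was multiplied by 1 factor so that its 2% trimmed mean was 500, a floor of 16 was applied, and signals were put on the log2 scale. The test used the 10368 of 15866 non-control probe sets whose signal averaged 100 or more, fitted with limma 3.58.1 in R 4.3.3 (lmFit, eBayes with trend), two-sided, and adjusted by Benjamini-Hochberg (threshold 0.05); values of members below that filter come from a fit of the whole table. The fit was tested on simulated data with 200 changed genes. Single genes also had an exact permutation test. The number of arrays limits the precision.

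Same-numbered control and treated arrays correlated at 0.352, 0.252, 0.0347 and 0.406 (deviations from group means). Control replicate 4 correlated at 0.430 with dexamethasone replicate 3 and at -0.408 with dexamethasone replicate 2. These values do not settle whether the numbers mark pairs. As the sources used here name no pairs, the main fit took none, and a fit with the replicate number as a block is given below. Members and gene lists were chosen with earlier results of these data known. Members were given array by array where they passed the test, did not overlap between groups or were the strongest of their role; listed neighbours where they passed or were the strongest of their class. RT1-DMb, RT1-T24-4, Ifitm1, Psmb9 and Psme2 fall outside this rule and were added after their values were seen. Promoters (250 bases before to 50 after the start) came from RefSeq, GRCr8, matched by symbol for 43 members; 33469 promoters were searched. Alternatives were other scalings, filters, floors, variance models, blocks, a beta-actin covariate, subsets of arrays and averaging the probe sets of each gene.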

Additional observations from a re-analysis of the deposited data

Results flagged for a closer look

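In 78 groups of 4 signals (39 members tested, 2 groups each), 3 held 1 array far from the other 3, where chance gives about 1 group in 20. The number flagged is thus not above that rate. Usp18, the brake on the type I interferon receptor, read 615 on control replicate 3 and 191 to 224 on the other control arrays. RT1-CE12, a class I heavy chain read by probes shared with other copies, read 8687 on the same array and 4070 to 4571 on the others. Rsad2, the antiviral enzyme viperin, read 155 on control replicate 4 and 98.6 to 100.3 on the other control arrays, which are under the level of silent genes there.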

How the results depend on the processing

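Of the members, 2 were higher and 0 lower. The count of members higher was 1 with no filter, 0 with the signals as deposited, 0 on replicates 3 and 4 alone, and 1 to 2 when 1 array was left out; by the median of the 16 ratios of a treated to a control signal at a fold of at least 1.3, which has no test, 6 were higher and 4 lower (25.6%, against 14.4% of all probe sets, 7.35% higher and 7.06% lower). RT1-DMa passed in 20 of 22 alternatives (log2 fold change 1.32 to 1.55) and Irf8 in 15 of 22 (0.55 to 1.33). For the listed neighbours, whose alternatives were added after the data were seen, 2 were lower in the reported fit, 0 with no filter, with the signals as deposited, on replicates 3 and 4 alone or with the beta-actin ratio as a covariate, 1 with no mean-variance trend, 5 with the array set as a block and 1 to 3 when 1 array was left out; 0 to 1 were higher when 1 array was left out (Il6st, without control replicate 4). The sign of B2m turned with quantile normalization (-0.014), on replicates 1 and 2 alone (-0.0015) and with the mean of all probe sets (-0.012), and its value ran from -0.023 to 0.059 when 1 array was left out; that of Usp18 turned with the beta-actin covariate (0.20). The cause was not tested. With the replicate number as a block, 2 members were higher and 0 lower, with 308 and 176 of all probe sets against 195 and 84. Control replicate 3 correlated better with dexamethasone replicate 1 (0.0744) than with its own number. The median of the members ranged from -0.06 to 0.20; the signals as deposited moved the median of all probe sets from -0.02 to 0.14, and called 34 of them higher and 2 lower. Taking the 90th percentile or the highest signal of the silent genes, 27 or 19 members were above their level on all 8 arrays, against 25.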

Other observations

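Probe sets that the annotation gives to several genes named no member, and 5 of them name an RT1 gene or Igtp. The one given to RT1-A3 and RT1-A2, class I heavy chains, had signals of 1928 and 2313 on control replicates 1 and 2 and 2175 and 2291 on dexamethasone replicates 1 and 2, against 451, 203, 226 and 416 on replicates 3 and 4 of control and of dexamethasone. The mean of the first set was 6.72 times that of the second, with no overlap, and both treatments were in each set. The probe set given to RT1-A, RT1-CE16 and RT1-A1 had 287 to 487 on replicates 1 and 2 and 199 to 353 on replicates 3 and 4. The probe set given to Igtpl1, Irgm2 and Igtp was at 16.8 to 62.2 on all 8 arrays, below the level of silent genes.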
